A study of Mus musculus with 11 samples.

Results

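Expression of the proteasome genes was examined in gonadal white adipose tissue from 11 male C57BL/6J mice. Members were the genes whose symbol starts with Psm, then a letter from a to g, then a digit. This rule uses names only, and it found 49 of the 12787 genes in the deposited table. By role, assigned from the symbol, these are 8 alpha subunits and 7 constitutive beta subunits of the core particle and the 3 immunoproteasome subunits. Further members are 6 ATPase genes of the regulatory particle and 14 Psmd genes grouped by symbol as its non-ATPase genes. Of the Psmd genes, Psmd5, Psmd9 and Psmd10 encode chaperones that help to assemble this particle rather than subunits of it. There are also 5 activator genes, 1 inhibitor and 4 Psmg assembly chaperones. The 49th match, Psmc3ip, encodes a cofactor of meiotic recombination and no proteasome subunit.

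The HFD group was 5 mice fed a high fat diet with 60% of energy as fat, and the labels give their treatment as vehicle. The HFD + IMC group was 6 mice fed that diet with 0.06% w/w iodomethylcholine (IMC), an inhibitor of the gut bacterial enzyme that turns choline into trimethylamine. Tissue came from wildtype mice after 20 weeks on diet, each mouse gave 1 bulk RNA library, and the labels do not give the age of the mice. The comparison asks how the drug changed adipose expression, and neither a lean group nor mice given the drug on another diet were analysed here.

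The proteasome is the protease that degrades most proteins tagged with ubiquitin. Its core is a barrel of stacked rings, with outer rings of alpha subunits that gate the entrance and inner rings of beta subunits, and Psmb5, Psmb6 and Psmb7 encode the constitutive catalytic sites. Interferon gamma induces the alternative catalytic subunits Psmb8, Psmb9 and Psmb10, which form the immunoproteasome and favour peptides suited to MHC class I. Regulatory particles of Psmc ATPases and Psmd proteins unfold ubiquitylated substrates, while the Psme genes encode activators that open the core without ATP. When proteasome activity is short, the transcription factor NRF1, encoded by Nfe2l1, induces proteasome genes through antioxidant response elements, and NRF1 is known for this role in brown fat.

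Promoter sequence is shown for 4 members. Psmb8 and Psmb9 stand for the interferon-linked subunits, Psme1 for the activator that went with them, and Psme4 for the activator with the largest increase. Psmb8 and Psmb9 did not pass the test between the groups, and Psmb10, which did, is not shown. Each stretch runs 5′ to 3′ on the strand of the gene from 250 bases before its RefSeq start to 20 bases after it, in build GRCm38.p6, the same assembly as mm10. Capitals mark a match on either strand to 1 of 3 searched cores, TTCNNNGAA for the gamma-activated site, GAAANNGAA for the interferon-stimulated response element and TGACNNNGC for the antioxidant response element. The cores were not filtered for overlap with one another.
Psmb8, chr17:34197945-34198214, plus strand: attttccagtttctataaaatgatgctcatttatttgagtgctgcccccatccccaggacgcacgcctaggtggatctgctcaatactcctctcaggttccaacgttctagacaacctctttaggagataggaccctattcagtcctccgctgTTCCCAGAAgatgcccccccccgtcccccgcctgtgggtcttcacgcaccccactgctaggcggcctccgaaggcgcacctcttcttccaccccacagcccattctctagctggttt
Psmb9, chr17:34187311-34187580, minus strand: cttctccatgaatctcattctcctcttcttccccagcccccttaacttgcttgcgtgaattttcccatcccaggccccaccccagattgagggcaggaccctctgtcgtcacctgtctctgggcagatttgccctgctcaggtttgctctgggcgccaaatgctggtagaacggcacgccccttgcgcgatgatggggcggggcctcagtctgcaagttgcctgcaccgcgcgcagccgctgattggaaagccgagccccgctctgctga
Psme1, chr14:55578244-55578513, plus strand: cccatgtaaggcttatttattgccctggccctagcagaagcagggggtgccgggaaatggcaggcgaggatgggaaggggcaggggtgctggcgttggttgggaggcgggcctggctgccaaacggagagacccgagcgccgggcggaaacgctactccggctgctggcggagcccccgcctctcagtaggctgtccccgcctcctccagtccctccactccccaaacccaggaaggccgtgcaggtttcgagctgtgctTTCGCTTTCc
Psme4, chr11:30771525-30771794, plus strand: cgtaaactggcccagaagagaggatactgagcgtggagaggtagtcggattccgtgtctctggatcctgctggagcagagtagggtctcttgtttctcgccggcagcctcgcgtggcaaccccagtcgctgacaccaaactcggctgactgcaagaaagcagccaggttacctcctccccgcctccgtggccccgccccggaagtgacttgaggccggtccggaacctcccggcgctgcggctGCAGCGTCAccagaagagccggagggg
The gamma-activated core of Psmb8 begins 97 bases before the start, the interferon core of Psme1 lies 11 bases after it, and the antioxidant core of Psme4 begins 7 bases before it. The Psmb9 stretch holds none of these letters, and it reaches into the first exon of Tap1, the peptide transporter gene on the opposite strand. In the full windows of 250 bases before to 50 after the start, which the table gives for 41 members, the antioxidant core was in 14.6% of members and 14.0% of 27025 genes. The gamma-activated core was in 7.32% of members and 9.55% of genes, and the interferon core in 17.1% and 9.76%. Members with the gamma-activated core were Psmb8, Psmd2 and Psmg1. Those with the interferon core were Psmb3, Psmb4, Psmc2, Psmd4, Psmd9, Psme1 and Psmg4, with no immunoproteasome gene among them. These matches describe letters and are not evidence of binding.

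Depth was similar across mice, with 22320022 to 25155366 reads per library over the genes of the table. Members averaged between 42.3 and 5422 reads per mouse, and 46 of 49 averaged at least 100. Cell type markers differed between the groups: of those listed, all 12 adipocyte genes were higher and 12 of 15 macrophage genes lower in HFD + IMC. Summed macrophage markers ran from 13.42 to 13.84 log2 CPM in HFD and from 12.63 to 13.25 in HFD + IMC, and adipocyte markers from 13.44 to 13.98 and from 14.43 to 14.70. Their part in the results below was not tested, and in bulk tissue fewer cells of a type and less RNA per cell cannot be told apart. HFD mouse 4 stood apart in interferon-linked genes, so the results that rest on it are given with and without it.

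Levels per kb of annotated exon allow a rough comparison of genes, and by this measure core and regulatory genes differed widely in HFD mice. The length joins the exons of a gene's coding transcripts, so long exons of minor transcripts can lower its value. Psmb6, the caspase-like catalytic subunit, was highest at 226 ± 20.9 CPM per kb (SD, n = 5). It was followed by the alpha subunits Psma6 at 125 ± 9.29 and Psma1 at 123 ± 5.21 and by Psmb2, a structural beta subunit, at 115 ± 6.61 CPM per kb (SD, n = 5), and the ranges of 1 SD of these 3 genes overlapped. The 6 ATPases spanned 41.8 (Psmc6) to 83.5 (Psmc5) CPM per kb, and the 4 Psmg assembly chaperones 12.5 (Psmg2) to 16.4 (Psmg4) CPM per kb.

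**Figure D1:**
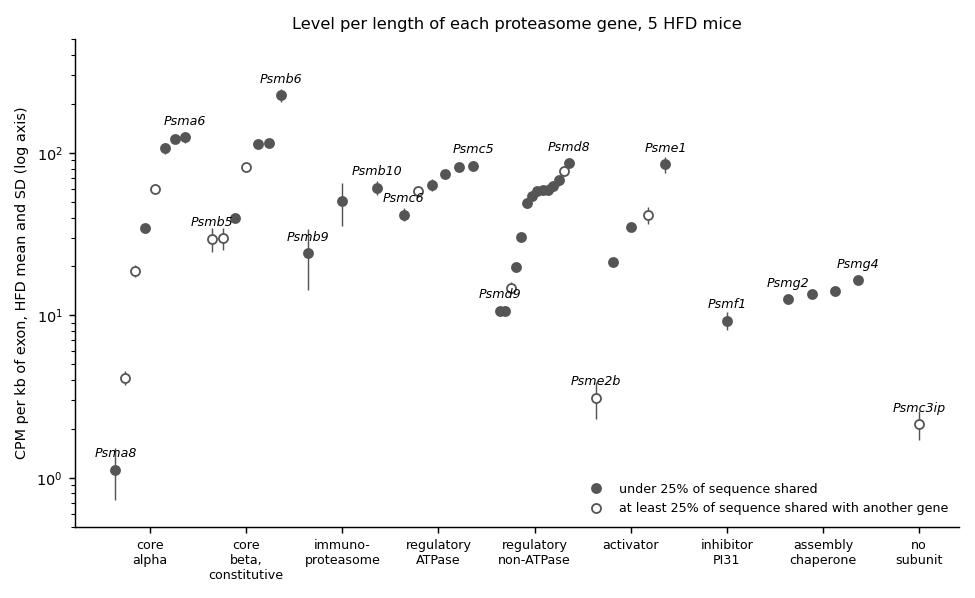
Mean level per length of each proteasome gene in the 5 HFD mice (vertical log axis, CPM per kb of exon; bars, SD), by role. Open circles share at least 25% of their exon sequence with another gene, and the lowest and highest gene of each role are named; Psmb6 is the highest at 226 CPM per kb and Psma8 the lowest at 1.12.

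Of the immunoproteasome genes, Psmb8 and Psmb10 lay inside the range of the constitutive beta genes and Psmb9 below it. In HFD mice Psmb10 stood at 61.2 ± 5.99, Psmb8 at 50.4 ± 14.7 and Psmb9 at 24.1 ± 9.78 CPM per kb (SD, n = 5). Their constitutive counterparts were Psmb7 at 81.7 ± 4.32, Psmb5 at 29.6 ± 4.95 and Psmb6 at 226 ± 20.9 CPM per kb (SD, n = 5). Psmb9 was thus far below the gene it replaces, whereas Psmb8 was above Psmb5. The level of Psmb5 is uncertain, because 71.7% of its 31-base stretches also occur in Gm3375 or other loci, where reads may be lost or shared. Psmb3 (66.8%), Psma5 (66.5%) and Psme2 (62.6%, mostly with Psme2b) carry the same doubt. Psma3 stood at 4.12 ± 0.41 CPM per kb in HFD (SD, n = 5), and 28.0% of its stretches also occur in other loci.
Psma8, Psme2b and Psmc3ip were close to the lower limit, with means of 42.3, 58.1 and 59.9 reads per mouse. Psma8 is the testis form of an alpha subunit.

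Few proteasome genes differed between HFD + IMC and HFD, and the differences were small. At an adjusted p of 0.05 (limma, adjusted over all genes), 9 of 49 members passed, which is 18.4%, against 40.9% of all genes. Psme4, Psme3 and Psmb7 were higher (6.12% of members, against 20% of all genes). Psmg3, Psmb6, Psme1, Psmb10, Psmb4 and Psma7 were lower (12.2% of members, against 21.0%). The 5 and 6 mice did not overlap for 4 members, Psmb6, Psme1, Psme3 and Psme4, or 8.16%, against 23.1% of all genes. The median absolute log2 fold change was 0.09 over members and 0.17 over all genes, and no member exceeded 0.35. The members with a mean of at least 5 log2 CPM gave 8 calls in 35, or 22.9%, where genes of that level gave 51.6% in the same fit.

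**Figure D2:**
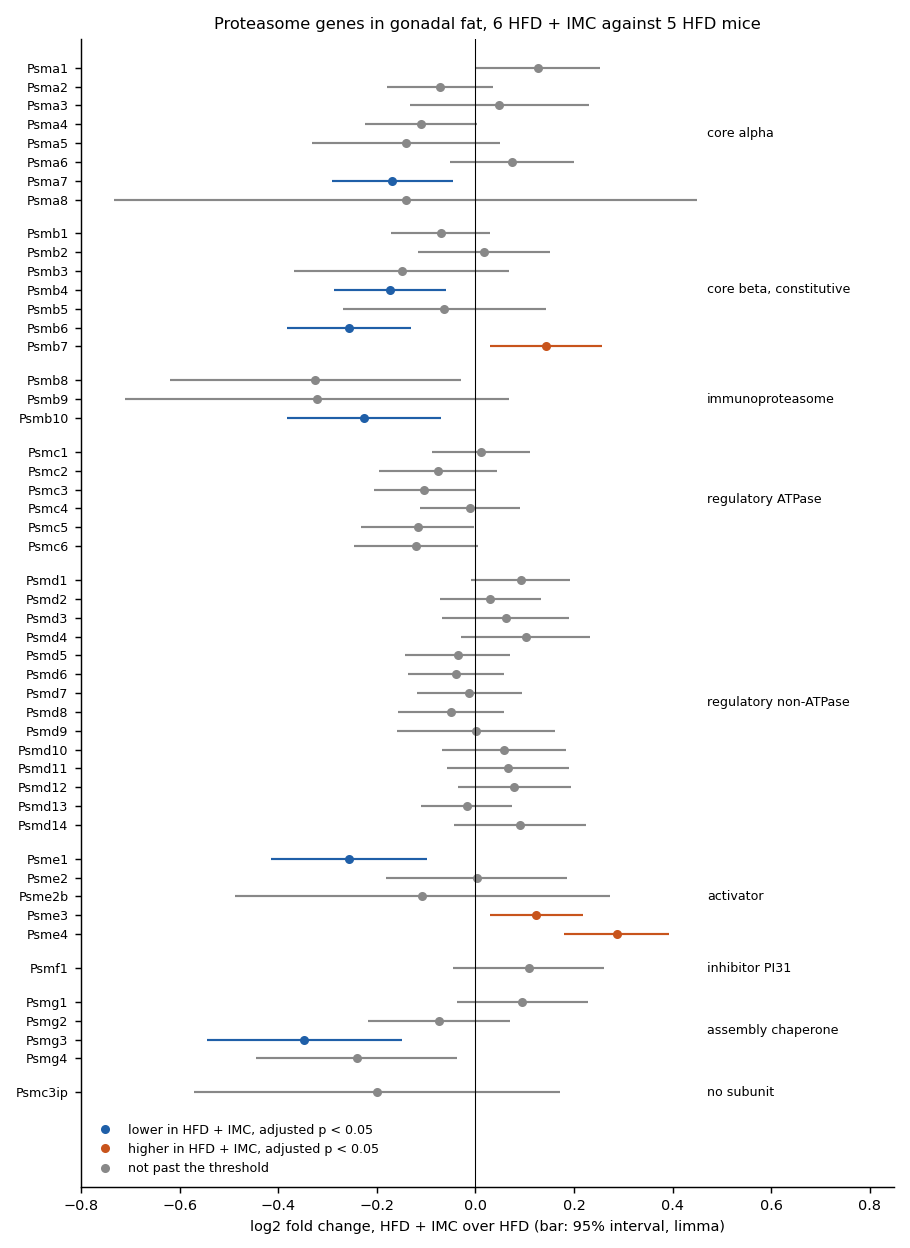
Log2 fold change of each member, HFD + IMC over HFD (horizontal axis), with the 95% interval from limma (n = 5 and 6 mice), by role. Blue genes were lower and orange genes higher at an adjusted p of 0.05; the 20 regulatory Psmc and Psmd genes are all grey, and the points run from -0.35 (Psmg3) to 0.29 (Psme4).

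The scaling of the libraries moved the split between directions. With libraries scaled to total counts, 1 member was higher and 11 were lower, because Psmb7 and Psme3 no longer passed while Psma4, Psmc3, Psmc5, Psmc6 and Psmg4 passed as lower. That scaling shifted the median of all genes from -0.03 to -0.06 on the log2 scale.

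Of the 15 alpha and constitutive beta genes of the core particle, 3 were lower, a share near the 21.0% of all genes, and 1 was higher, against 20% of all genes. Psmb6 was 7.62, 7.35, 7.47, 7.37 and 7.64 log2 CPM in HFD mice 1 to 5, and in HFD + IMC its lowest, median and highest values were 7.12, 7.25 and 7.28. Every HFD + IMC mouse was below every HFD mouse. Expression decreased by 16.3%, a log2 fold change of -0.26 ± 0.06 (SE) with an adjusted p of 0.00375 (limma), and the call held in all 18 alternatives.
Psmb4, a structural beta subunit, was 7.15, 6.99, 6.98, 7.08 and 7.11 log2 CPM in HFD mice and 6.80, 6.88 and 7.05 (lowest, median, highest) in HFD + IMC. The groups overlapped through the highest HFD + IMC mouse. Its log2 fold change was -0.17 ± 0.05 (SE) with an adjusted p of 0.0185, and without HFD mouse 1 the adjusted p was 0.0507.
Psma7, an alpha subunit, was 7.15, 6.90, 6.91, 6.91 and 7.01 log2 CPM in HFD mice and 6.68, 6.82 and 6.91 in HFD + IMC. The groups met at the low end of HFD, and HFD mouse 1 was highest. The log2 fold change of -0.17 ± 0.06 (SE) had an adjusted p of 0.0307, which rose to between 0.0555 and 0.0801 when HFD mouse 1 or 5 or HFD + IMC mouse 1, 3 or 5 was left out.
Psmb7, the trypsin-like catalytic subunit, moved the other way. It was 6.68, 6.51, 6.54, 6.50 and 6.59 log2 CPM in HFD mice and 6.58, 6.70 and 6.85 in HFD + IMC, with overlap. Psmb7 rose by 0.14 ± 0.05 (SE) on the log2 scale, with an adjusted p of 0.0449. The call was lost under total-count scaling (adjusted p = 0.0919) and without HFD mouse 2, 3, 4 or 5 or HFD + IMC mouse 1, 2, 4 or 6 (adjusted p 0.0576 to 0.102). Psmb7 also overlaps exons of Nek6 on the opposite strand. The paper names a directional library kit, but the strand setting of the counting is not given in the sources used here.
Psmb5, the chymotrypsin-like subunit, was 5.02, 4.68, 4.47, 4.51 and 4.91 log2 CPM in HFD mice and 4.56, 4.61 and 4.80 in HFD + IMC. The HFD + IMC mice lay inside the HFD range, and the log2 fold change was -0.06 with a 95% interval of -0.27 to 0.14 (adjusted p = 0.625).
The other core genes did not pass the test. Their log2 fold changes ran from -0.15 (Psmb3) to 0.13 (Psma1), with medians over the roles of -0.09 for the 8 alpha genes and -0.07 for the 7 constitutive beta genes, beside -0.03 over all genes.

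All 3 immunoproteasome genes had lower means in HFD + IMC, but only Psmb10 passed the test. Psmb10 replaces Psmb7 in the core. It was 6.20, 6.25, 6.24, 6.53 and 6.39 log2 CPM in HFD mice and 5.95, 6.09 and 6.24 in HFD + IMC. The groups overlapped between 6.20 and 6.24. Expression decreased by 14.5%, for a log2 fold change of -0.23 ± 0.07 (SE) and an adjusted p of 0.0236. Without HFD mouse 4 it was -0.17 (adjusted p = 0.0629), and the call was also lost without HFD mouse 5 (-0.21, adjusted p = 0.0507) or HFD + IMC mouse 2 (-0.21, adjusted p = 0.0509).
Psmb8, the counterpart of Psmb5, was 6.12, 6.27, 6.01, 6.95 and 6.24 log2 CPM in HFD mice and 5.79, 5.99 and 6.16 in HFD + IMC. HFD mouse 4 was the highest by a wide margin, and the remaining HFD mice overlapped the HFD + IMC group. Its log2 fold change was -0.33 with a 95% interval of -0.62 to -0.03 and an adjusted p of 0.0745. Without HFD mouse 4 it was -0.17 (adjusted p = 0.111), and without HFD mouse 3 it was -0.40 and passed (adjusted p = 0.0398).
Psmb9, the counterpart of Psmb6, was 4.50, 5.01, 4.61, 5.79 and 4.82 log2 CPM in HFD mice and 4.46, 4.61 and 4.78 in HFD + IMC. Again HFD mouse 4 was alone at the top. The log2 fold change was -0.32 with a 95% interval of -0.71 to 0.07 (adjusted p = 0.173), and -0.11 without that mouse (adjusted p = 0.411). Psmb9 shares exon sequence with Tap1 on the opposite strand, so its reads are not wholly its own if strand was ignored.

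**Figure D3:**
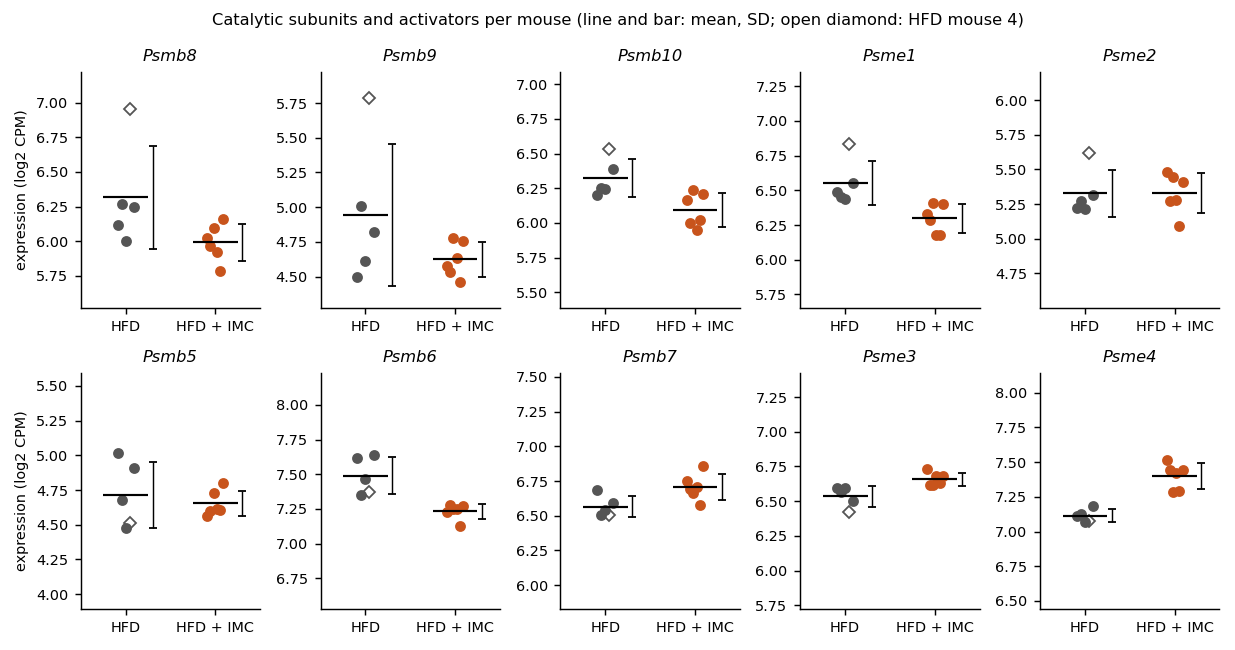
Expression (vertical axis, log2 CPM, every panel spanning the same width) of the immunoproteasome subunits, their constitutive counterparts and the activators in each mouse; line and bar give mean and SD of 5 HFD and 6 HFD + IMC mice. The open diamond, HFD mouse 4, is the highest of 11 for Psmb8, Psmb9, Psmb10, Psme1 and Psme2 and the lowest for Psme3.

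HFD mouse 4 was highest of all 11 mice for each of Psmb8, Psmb9, Psmb10, Psme1 and Psme2, and for none of the 35 core and regulatory genes outside the immunoproteasome. The same mouse was highest for 8 of 15 listed interferon regulators and targets and for 7 of 11 antigen processing partners. Tap1, which pumps proteasome products into the endoplasmic reticulum, was 6.69 log2 CPM in that mouse and 5.45 to 5.96 in the other HFD mice. Irf1, an interferon-induced transcription factor, was 6.89 there and 5.92 to 6.18 in the others. Gbp2, a guanylate-binding protein gene, was 7.57 log2 CPM there and 6.19 to 7.18 in the other HFD mice, a smaller gap. The lymphocyte markers Cd2 and Nkg7 were also highest in it, at 3.75 and 3.49 log2 CPM. The lymphocyte marker Klrb1c was not: it peaked at 1.91 log2 CPM in HFD + IMC mouse 6, against at most 1.45 in HFD. Of the 19 lymphocyte markers only 3 are listed, with Cd3e, Cd4 and Cd8a among those not listed, and their sum was 4.76 log2 CPM in that mouse against 3.34 to 4.09 in the other HFD mice. Summed macrophage markers were 13.55 log2 CPM in it, inside the range of the other HFD mice. What set this mouse apart was not tested.

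Each immunoproteasome subunit was next compared with the constitutive subunit it replaces inside each mouse, a difference that no scaling of libraries can change. Psmb10 minus Psmb7 was -0.49, -0.26, -0.30, 0.03 and -0.20 log2 in HFD mice 1 to 5, and -0.77, -0.62 and -0.42 (lowest, median, highest) in HFD + IMC. All 6 HFD + IMC mice were below the HFD median and 5 were below the lowest HFD mouse. The means were -0.24 ± 0.19 (SD, n = 5) and -0.61 ± 0.12 (SD, n = 6), a difference of -0.37 with a two-sided exact permutation p of 0.00649, or 0.0195 adjusted over the 3 pairs. Without HFD mouse 4 it was -0.30 (adjusted p = 0.0429, exact permutation test).
Psmb8 minus Psmb5 was 1.10, 1.59, 1.53, 2.44 and 1.34 log2 in HFD mice and 1.18, 1.36 and 1.46 in HFD + IMC. The HFD + IMC mice lay inside the HFD range. The difference of the group means was -0.26 (exact permutation p = 0.249, adjusted p = 0.373), -0.05 without HFD mouse 4 (adjusted p = 0.624, exact), and -0.39 without HFD mouse 1 (adjusted p = 0.0357, exact).
Psmb9 minus Psmb6 was -3.12, -2.34, -2.86, -1.59 and -2.82 log2 in HFD mice and -2.75, -2.63 and -2.47 in HFD + IMC. The difference was -0.06 (exact permutation p = 0.848, adjusted p = 0.848) and changed sign to 0.17 without HFD mouse 4 (adjusted p = 0.386, exact). A relative decrease thus passed the test for 1 of 3 pairs. In that pair Psmb10 alone had passed as lower and Psmb7 alone as higher on the same values. The difference is therefore not independent of those calls.

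**Figure D4:**
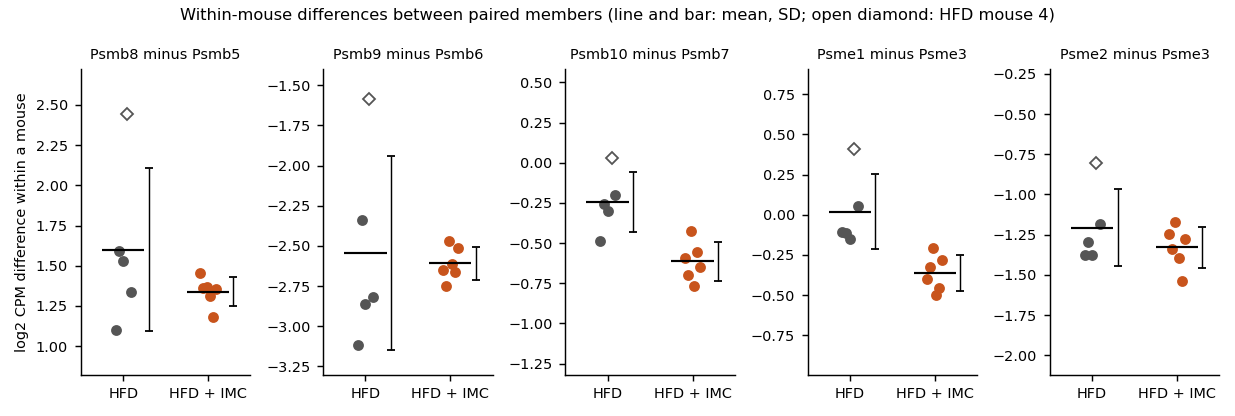
Log2 CPM difference between 2 members within each mouse (vertical axis), for 3 immunoproteasome and constitutive pairs and for the PA28 activator genes; line and bar give mean and SD. Psmb10 minus Psmb7 averaged -0.24 in 5 HFD and -0.61 in 6 HFD + IMC mice, Psme1 minus Psme3 did not overlap between groups, and the open diamond is HFD mouse 4.

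The activators split by gene. Psme4 encodes PA200, a nuclear activator linked to histone turnover. It was 7.12, 7.13, 7.07, 7.08 and 7.19 log2 CPM in HFD mice and 7.29, 7.43 and 7.52 in HFD + IMC. Every HFD + IMC mouse was above every HFD mouse. Psme4 rose by 22.0%, or 0.29 ± 0.05 (SE) on the log2 scale, with an adjusted p of 0.000684, the smallest of the members, and the call held in all 18 alternatives.
Psme3, which encodes the nuclear PA28 gamma, was 6.59, 6.57, 6.59, 6.42 and 6.50 log2 CPM in HFD mice and 6.61, 6.65 and 6.73 in HFD + IMC. The groups did not overlap, though they came close. Psme3 rose by 0.12 ± 0.04 (SE) on the log2 scale, with an adjusted p of 0.0383. It lost the call under total-count scaling (0.09, adjusted p = 0.0869), without HFD mouse 4 (0.09, adjusted p = 0.102) or 5, and without HFD + IMC mouse 1, 4 or 6 (adjusted p 0.0652 to 0.0758 for these others).
Psme1, which encodes the interferon-inducible PA28 alpha, was 6.49, 6.45, 6.44, 6.83 and 6.55 log2 CPM in HFD mice and 6.18, 6.31 and 6.41 in HFD + IMC. The groups did not overlap. Psme1 decreased by 16.3%, or -0.26 ± 0.07 (SE) on the log2 scale, with an adjusted p of 0.0141. Without HFD mouse 4 it was -0.19 and still passed (adjusted p = 0.0253), as in all 18 alternatives. Its exons overlap Emc9 on the other strand.
Psme2, which encodes the partner PA28 beta, was 5.22, 5.27, 5.21, 5.62 and 5.32 log2 CPM in HFD mice and 5.09, 5.34 and 5.48 in HFD + IMC. The groups overlapped widely. Its log2 fold change was 0.00 with a 95% interval of -0.18 to 0.19 (adjusted p = 0.985), and its sign was not stable.
Relative to Psme3 within a mouse, Psme1 was -0.10, -0.12, -0.15, 0.41 and 0.05 log2 in HFD mice and -0.50, -0.36 and -0.21 in HFD + IMC. The groups did not overlap. The difference of -0.38 had an exact permutation p of 0.00216, the smallest this design allows, or 0.00433 adjusted over 2 differences. Without HFD mouse 4 the difference was -0.28 (adjusted p = 0.0190, exact permutation test). Psme1 alone was lower and Psme3 alone higher without overlap, so this separation was fixed in advance and is no further support. For Psme2 relative to Psme3 the difference was -0.12 (exact permutation p = 0.357, adjusted p = 0.357), and -0.02 without HFD mouse 4.
Psme2b, a copy of Psme2, had a log2 fold change of -0.11 (95% interval -0.49 to 0.27), and 78.4% of its sequence is shared with other loci. Psmf1, which encodes the inhibitor PI31, had 0.11 (95% interval -0.05 to 0.26).

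None of the 20 Psmc and Psmd genes, grouped by symbol as the regulatory particle, passed in either direction, against 40.9% of all genes. Sem1, a subunit of the particle that the naming rule does not match, was lower (log2 fold change -0.40, adjusted p = 0.00022, limma). The 6 ATPases, which thread substrates into the core, had log2 fold changes from -0.12 (Psmc6) to 0.01 (Psmc1), with 5 of 6 below 0. The 14 non-ATPase genes ran from -0.05 (Psmd8) to 0.10 (Psmd4), with 9 of 14 above 0. Psmd1, a scaffold of the particle, was 7.52 ± 0.09 log2 CPM in HFD (SD, n = 5) and 7.61 ± 0.04 in HFD + IMC (SD, n = 6), and the 95% interval of its log2 fold change was -0.01 to 0.19. Psmd14, the deubiquitinase of the particle, had a 95% interval of -0.04 to 0.22. Psmd4, a ubiquitin receptor, had one of -0.03 to 0.23. These intervals leave room for increases of up to 0.23 on the log2 scale. Among the ATPases, the interval of Psmc6 reached down to -0.25 and that of Psmc5 to -0.23, and Psmc3, Psmc5 and Psmc6 passed as lower with total-count scaling.

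Among the Psmg assembly chaperones, Psmg3 was lower. Psmg3 forms a pair with Psmg4 that helps to build the alpha ring. It was 3.70, 3.63, 3.47, 3.65 and 3.71 log2 CPM in HFD mice and 3.10, 3.23 and 3.62 in HFD + IMC. HFD + IMC mouse 3 reached into the HFD range. Psmg3 decreased by 21.4%, or -0.35 ± 0.09 (SE) on the log2 scale, with an adjusted p of 0.00906. It held in all 17 alternatives that tested the gene. Its exons overlap Gm26938 on the same strand, so its reads may be shared.
Psmg4 had a log2 fold change of -0.24 (95% interval -0.45 to -0.04, adjusted p = 0.0573), and passed without HFD + IMC mouse 3 or 6. Psmg1 and Psmg2, which form the other chaperone pair, had 0.09 and -0.07 and did not pass.

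Single mice lay at the extremes of many core and regulatory genes. HFD mouse 1 was highest of 11 for 17 of the 35 core and regulatory genes outside the immunoproteasome, and HFD + IMC mouse 5 was lowest for 20 of them. HFD mouse 1 was also highest for 8 of 15 macrophage markers and lowest for 9 of 12 adipocyte markers. HFD + IMC mouse 5 was lowest for 0 of 15 and 0 of 12. Shares over all genes are not given here. The mean of the 35 genes, each set to 0 over the 11 mice, ran from -0.05 to 0.13 in HFD and from -0.13 to 0.05 in HFD + IMC. The immunoproteasome mean ran from -0.10 to 0.72 in HFD and from -0.28 to 0.01 in HFD + IMC, with HFD mouse 4 at the top. Means of the Psmg assembly chaperones ran from 0.02 to 0.16 in HFD and from -0.17 to 0.03 in HFD + IMC. The pooled SD within groups was 0.27 for Psmb8 and 0.35 for Psmb9 on the log2 scale, beside a median of 0.09 for the 35 genes and 0.13 for all genes.

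**Figure D5:**
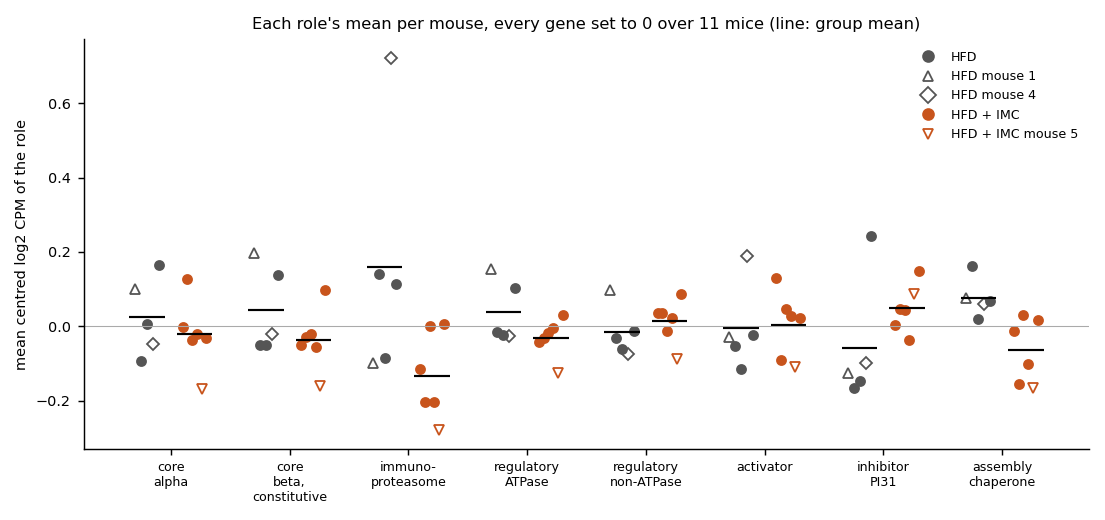
Mean of the genes of each role in each mouse (vertical axis, log2 CPM with every gene set to 0 over the 11 mice; line, group mean). HFD mouse 4 reaches 0.72 for the immunoproteasome, and HFD + IMC mouse 5 is lowest for both core roles and both regulatory roles.

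The pathway around the proteasome was summarised by lists of its other genes. Their counts stand beside 20% of all genes higher and 21.0% lower. Of 11 listed proteasome-bound and biogenesis genes, 1 was higher and 3 were lower. Sem1, listed under the older symbol Shfm1 and a small subunit of the regulatory particle, changed most, with 6.66 to 6.95 log2 CPM in HFD and 6.32 to 6.57 in HFD + IMC and a log2 fold change of -0.40 (adjusted p = 0.00022). Ube3c, a ubiquitin ligase bound to the proteasome, rose by 0.20 on the log2 scale (adjusted p = 0.00202). Akirin2, the factor that carries proteasomes into the nucleus, fell by 0.20 (adjusted p = 0.0131). Pomp, the core maturation factor, had a log2 fold change of -0.12 and did not pass.
Of the 7 genes listed for the NRF1 pathway, 3 were higher and 2, Nfe2l2 and Mafg, were lower. Nfe2l2, which encodes the related factor NRF2, fell by 0.20 on the log2 scale (adjusted p = 0.0352, limma). Nfe2l1 itself was 8.90 to 9.13 log2 CPM in HFD and 9.46 to 9.55 in HFD + IMC, without overlap, and rose by 0.50 ± 0.05 (SE) on the log2 scale (adjusted p = 3.5e-05). Ngly1, whose product processes NRF1, was higher by 0.16, while its protease partner Ddi2 had 0.12 and did not pass. Among the small Maf partners, Maff rose by 0.52 (adjusted p = 0.00287) and Mafg fell by 0.25 (adjusted p = 0.00935). The 35 core and regulatory genes meanwhile had a median log2 fold change of -0.02, with 1 higher and 3 lower, or 11.4% called, against 40.9% of all genes. The 6 members with the antioxidant core in their window were Psmb5, Psmb6, Psmc6, Psmd9, Psmd12 and Psme4, and of these Psme4 was higher, Psmb6 lower and 4 passed in neither direction, a count too small to set against the 40.9% of all genes.
Of 9 genes for p97 and the factors that deliver ubiquitylated proteins, 6 were higher and none lower. Ubqln1, Ubqln2 and Ubqln4, shuttles that bind both ubiquitin and the proteasome, rose by 0.33, 0.32 and 0.27 on the log2 scale (adjusted p = 0.000121, 0.000236 and 0.00129), with no overlap between groups. Vcp, which encodes p97, had a log2 fold change of 0.00. Of 5 listed genes for ubiquitin and its activating enzymes, 1 was higher and 1, Rps27a, lower. Uba1, the main activating enzyme, rose by 0.12 on the log2 scale (adjusted p = 0.0366), and Uba6, the second activating enzyme, had a log2 fold change of -0.14 and did not pass (adjusted p = 0.201).
Of 11 antigen processing partners, 2 were lower and none higher, beside 21.0% lower and 20% higher over all genes. These were the peptide-loading chaperones Pdia3 (-0.37, adjusted p = 0.00625) and Calr (-0.32, adjusted p = 0.0285), which also fold glycoproteins in general. Tap1 had -0.21 (adjusted p = 0.341), and without HFD mouse 4 the adjusted p was 0.917. B2m, the light chain of MHC class I, had 0.22 and did not pass (adjusted p = 0.0648).
Of 15 interferon regulators and targets, 4 were lower and none higher, beside 21.0% lower and 20% higher over all genes. Irf8, a factor of the macrophage lineage, fell by 0.41 (adjusted p = 0.00271) without overlap, and Stat2 and Irf9, partners in type I interferon signalling, fell by 0.26 and 0.25 (adjusted p = 0.0159 and 0.0204). Ifngr2, a chain of the interferon gamma receptor, fell by 0.24. Irf1 had -0.29 and did not pass. Macrophage markers were lower in the same mice, and the part of macrophage content in these values was not tested.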

How the data were processed

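RNA was isolated from gonadal white adipose tissue of 5 HFD and 6 HFD + IMC mice and sequenced as 1 library per mouse. The groups were taken from the sample labels, which give the treatment as vehicle (here HFD) or IMC (here HFD + IMC). The labels name no cage or batch, so mice were treated as independent and the p-values measure the spread between these mice. The paper describes mice housed in groups. Cage mates may resemble each other, and this could not be modelled.

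Per the labels and methods, reads were trimmed (Trim Galore), mapped to mm10 and counted per gene (STAR), and the authors scaled the libraries by the upper quartile in edgeR, after dropping genes with low counts. The authors deposited 1 table of log2 CPM values for 12787 genes. It also holds the fold changes, mean log2 CPM, test statistics, p-values and FDR of the authors' own comparison, which were not used. Libraries were made with a directional kit according to the paper, but the strand setting of the counting is not given in the sources used here.

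Each mouse's log2 CPM values move in steps of whole reads, and 100% of values were recovered as whole reads. These reads gave the depth and the alternative scalings. Reads carry no molecular identifiers, so depth bears on counting error only.

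The log2 CPM values were compared with limma 3.58.1 in R 4.3.3 (linear model with a mean-variance trend, group as the only factor) and adjusted by Benjamini-Hochberg over all 12787 genes, with a threshold of 0.05. No further filter was applied. The scripts were tested on simulated data. Differences between genes within a mouse were tested exactly, two-sided, by permuting the group labels in every possible way among the 11 mice, and adjusted over the 3 immunoproteasome pairs or the 2 PA28 differences. Results were recomputed with other scalings, 2 added reads, limma voom on recovered reads, filters at 2 and 5 log2 CPM, robust moderation, and without each mouse.

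Levels per kb used the joined exons of GENCODE M21, and shared sequence is the share of a gene's 31-base stretches found in exons of another gene. Promoters came from a RefSeq table of GRCm38.p6, in which 41 of 49 members had an entry. Psmb1, Psmb2, Psmb7, Psmc3, Psmd3, Psmd7, Psma8 and Psmg2 had none.

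Values per mouse are given for the immunoproteasome subunits, their counterparts, Psme1, Psme2, Psme3 and up to 6 called members in each direction with the largest change, and from each pathway list the 3 genes with the smallest p are named, beside genes named after their values were seen. The members, gene lists and tests were chosen with earlier results of these data known. Besides the 6 pathway lists, 8 marker lists were counted: endothelial (1 of 7 higher), progenitor and fibroblast (1 higher and 2 lower of 8), skeletal muscle (2 of 4 listed higher), mesothelial (1 of 5 lower), epididymis (0 listed), and the adipocyte, macrophage and lymphocyte lists.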

Additional observations from a re-analysis of the deposited data

Results flagged for a closer look

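In 8 of 108 sets of mice tested (each member and each within-mouse difference in each group), 1 mouse lay far from the others of its group, a gap that chance alone gives in about 1 in 20 sets. HFD mouse 4 was far above the other HFD mice for Psmb8 (6.95 log2 CPM, others 6.01 to 6.27), Psme1 (6.83, others 6.44 to 6.55) and Psme2 (5.62, others 5.21 to 5.32). HFD mouse 1 was far above them for Psma5 (4.74 log2 CPM, others 4.46 to 4.53) and Psmb1 (7.21, others 7.04 to 7.06). HFD mouse 5 was far above them for Psmf1 (5.50 log2 CPM, others 5.09 to 5.16). HFD + IMC mouse 5 was far below its group for Psmb6 (7.12 log2 CPM, others 7.23 to 7.28) and Psmd6 (6.15, others 6.28 to 6.35).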

How the results depend on the processing

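The count of 9 called members stayed between 6 and 12 in the 18 alternatives. It was 6 without HFD mouse 4, 5 or HFD + IMC mouse 1, and these calls were among the 9 except Psmf1, which passed without HFD mouse 5. With total-count scaling, 1 member was higher and 11 lower. Without 1 mouse each, the members higher in HFD + IMC numbered 1 to 4, and 1 without HFD mouse 4 or HFD + IMC mouse 1, 4 or 6. Psmb6, Psme1, Psme4 and Psmg3 kept their direction and call in every alternative in which they were tested. The log2 fold change of Psmb5 ranged from -0.12 to 0.011 without 1 mouse each, and turned sign without HFD mouse 1. Psme2 was -0.029 with total-count scaling and -0.028 to 0.075 without 1 mouse each. Psmb8 minus Psmb5 ranged from -0.39 to -0.051, and Psmb9 minus Psmb6 from -0.21 to 0.17, without 1 mouse each. The causes of these changes were not tested. A filter at 5 log2 CPM keeps 35 of 49 members, and those left out include Psmb5, Psmb9 and Psmg3. No paired analysis was possible because the labels tie no HFD mouse to an HFD + IMC mouse. With 5 and 6 mice, changes of the size seen in the members can be missed where a gene varies widely between mice. Psme3 and Psmb7 passed at log2 fold changes of 0.12 and 0.14, while Psmb8 and Psmb9 did not at -0.33 and -0.32. Psma8, Psme2b and Psmc3ip averaged under 100 reads.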

Other observations

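Of the genes that encode ubiquitin, Ubb and Rps27a were listed at 0.34 and 0.53 log2 CPM in HFD. Their exons share 50.3% and 65.4% of their 31-base stretches with other loci, so the listed values are uncertain. Rps27a had a log2 fold change of -0.58 (adjusted p = 0.0372, limma), and Ubb had 0.15 (adjusted p = 0.537). Rps27a also encodes a ribosomal protein fused to ubiquitin. Of 57 symbols in the RefSeq table that match the naming rule, 8 are not listed in the expression table, and 6 of these are pseudogenes.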
